A study of Mus musculus with 12 samples.

Results

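The genes described here encode the matrix metalloproteinases (MMPs), the ADAMTS proteases with their ADAMTS-like relatives, and the TIMPs that inhibit them. They were taken as every gene whose symbol begins with Mmp, Timp, Adamts or Adamtsl followed directly by a digit, each represented by the brightest probe set that carried its symbol alone. This gave 49 of 19938 genes on the array, namely 22 Mmp, 18 Adamts, 5 Adamtsl and 4 Timp genes, from 74 probe sets. Mmp15 and Adamts2 were not analysed here.

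The measurements were Affymetrix Mouse Gene 1.0 ST arrays of primary co-cultures of uterine cells from CD-1 mice on day 4 of pseudopregnancy, a state in which mating without fertilization has prepared the uterus for implantation. Sheets of epithelium were kept on inserts coated with matrigel, a basement membrane extract, and stromal cells on cover slips, and the layers were harvested apart. The co-cultures spent a night in medium with charcoal-stripped serum, which lacks steroids, before 2 days with estradiol (E2) or with the solvent alone. The groups were epithelial cells with 10 nM E2, epithelial cells with vehicle (0.01% ethanol), stromal cells with 10 nM E2 and stromal cells with vehicle, 3 arrays in each and 12 in all. No label ties the arrays of a group to different animals or cultures. The p-values therefore refer to the spread among these arrays alone, which may be technical.

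MMPs are zinc enzymes made as inactive proforms that cleave collagens, gelatin, proteoglycans and many signalling proteins once their propeptide is removed. ADAMTS proteases are secreted relatives with thrombospondin repeats that trim procollagens and cut proteoglycans such as versican, and ADAMTS-like proteins share the repeats but lack the protease. TIMPs bind the active sites of these enzymes, and in the uterus the balance of both sides accompanies the remodelling of the matrix through the estrous cycle and at implantation.

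All values below are log2 signals. Unless marked as SD, the value after ± is the standard error (SE) of a log2 difference between groups of 3 arrays. A gene passed where its p from limma, adjusted by Benjamini-Hochberg over all 23410 probe sets with a symbol, was under 0.05. All 12 epithelial markers were higher in the epithelial than in the stromal layer under either treatment, their mean per array lying at 10.13 to 11.87 in epithelial and 6.69 to 7.25 in stromal arrays. Stromal markers were also high on the inserts, with means of 9.78 to 10.58 in epithelial and 10.68 to 10.95 in stromal arrays. Of these 12 markers 7 passed as lower in epithelium under vehicle (median -0.82) and 3 under E2 (median -0.16), against 14.1% and 9.18% of all probe sets. Means of 6 mesothelial markers were 8.96 to 9.78 in epithelial and 7.01 to 7.24 in stromal arrays. Of these 4 passed as higher in epithelium under either treatment, against 7.27% (vehicle) and 4.43% (E2) of all probe sets. The label of the epithelial layer therefore covers inserts with much stromal and also mesothelial marker signal. In such bulk samples fewer cells of a type and less RNA per cell cannot be told apart. Epithelial vehicle replicate 2 stood apart in its group, with the highest epithelial (11.87) and the lowest stromal (9.78) and leukocyte (8.41) marker means. Epithelial E2 replicate 3 stood apart in its group too, with a leukocyte marker mean of 8.64 against 9.41 and 9.54 in E2 replicates 1 and 2. Its median absolute difference from these was 0.253 and 0.245. E2 replicates 1 and 2 lay closer together than any other arrays of a group, with a median absolute difference over all probe sets of 0.0831 in epithelium and 0.0642 in stroma, against 0.0913 to 0.27 between other arrays of 1 group. Whether these 2 arrays share a source was not tested, and counts with both averaged to 1 sample are given below.

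In the stromal layer E2 lowered many of these genes. Of the 49 genes 11 passed (22.4%), 10 lower and 1 higher, where 3.5% of all probe sets passed (1.98% lower and 1.52% higher). In the epithelial layer 6 passed (12.2%), 4 lower and 2 higher, where 2.9% of all probe sets did (1.12% lower and 1.77% higher). The E2 and vehicle arrays did not overlap in 29 genes in stroma, against 30.5% of all probe sets, and in 11 genes in epithelium, against 15% of all probe sets. Mmp9, Mmp14 and Adamts14 were lower in both layers, the stromelysins Mmp3 and Mmp10 and the collagenase Mmp13 were lower in stroma, Mmp19 and Adamts3 were higher in epithelium, and Adamtsl1 moved in opposite directions. The median difference of the 49 genes was -0.12 in stroma and -0.06 in epithelium, beside 0.03 over all probe sets in either layer. With E2 replicates 1 and 2 averaged, 5 genes passed in stroma (Mmp9, Mmp14, Mmp1b, Adamts14 and Adamtsl1), beside 1.29% of all probe sets, and 2 in epithelium (Mmp9 and Mmp14), beside 0.38%. In limma fits of 1 layer alone, 19 genes passed in stroma, beside 9.15% of all probe sets, and 0 in epithelium, beside 0.209%, with 10 at an unadjusted p under 0.05.

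**Figure D1:**
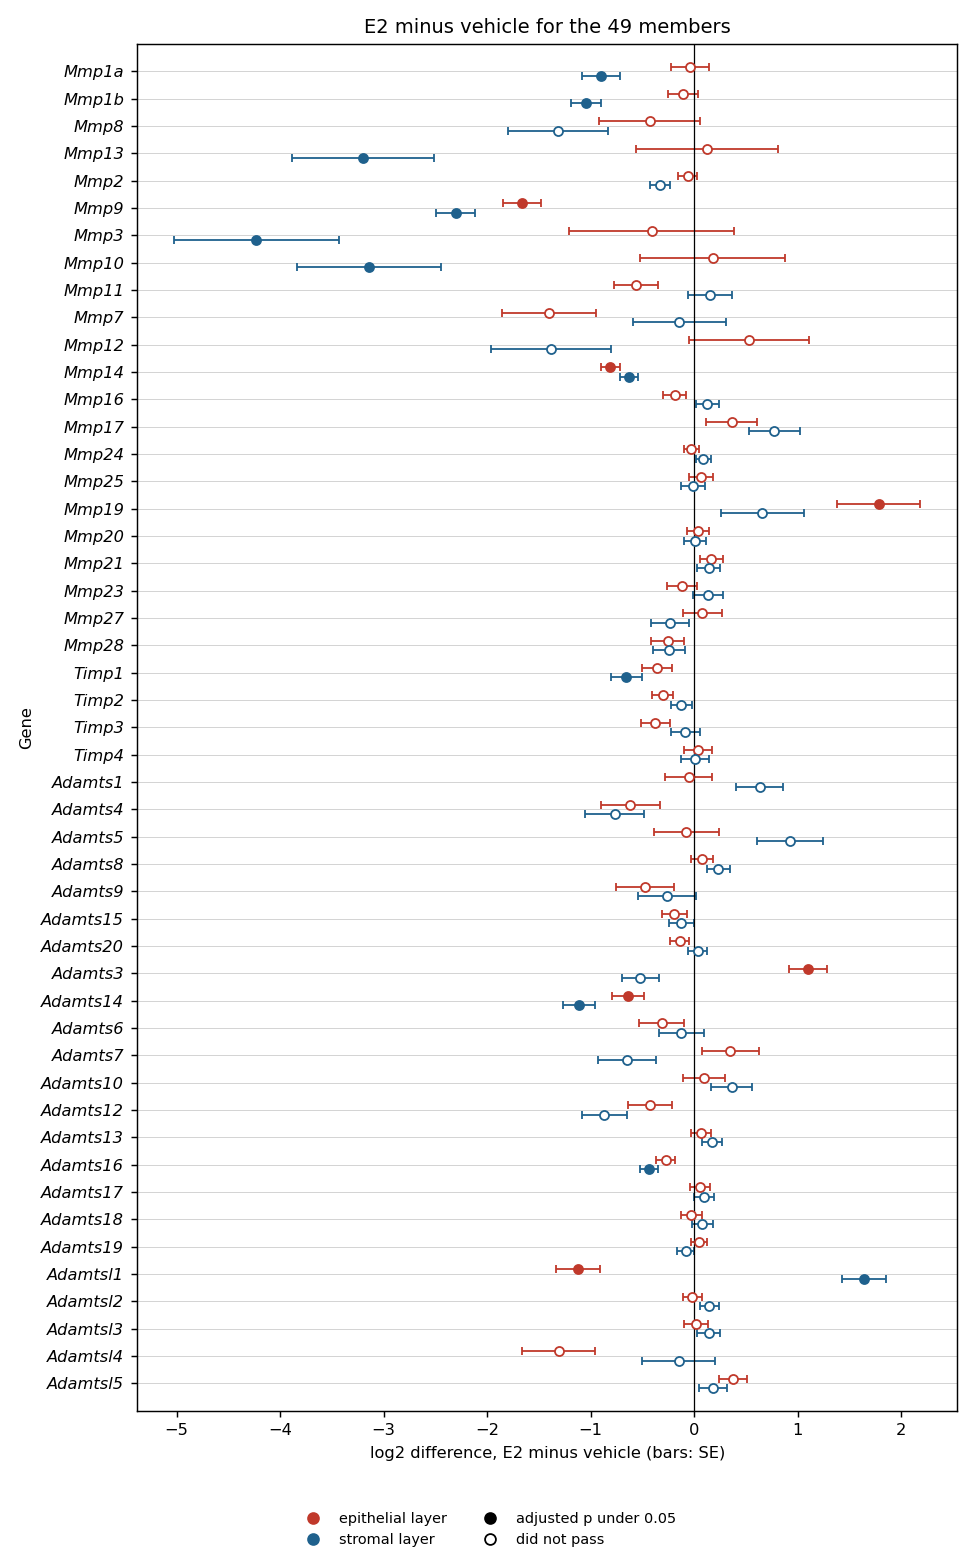
Log2 difference of E2 over vehicle for the 49 genes in the epithelial and stromal layers, with the standard error as bars and filled points for those past the threshold. The stromal points furthest below 0 belong to Mmp3 (-4.23), Mmp13 (-3.20) and Mmp10 (-3.14), and Adamtsl1 lies on opposite sides of 0 in the layers.

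Among the gelatinases, enzymes that digest denatured collagen and the type IV collagen of basement membranes, Mmp9 fell in both layers. It measured 9.74, 9.93 and 9.88 in stromal cells with E2, against 12.35, 12.03 and 12.10 in stromal cells with vehicle. In epithelial cells it measured 9.94, 10.07 and 10.07 with E2, against 12.11, 11.20 and 11.76 with vehicle. All 3 E2 arrays lay below all 3 vehicle arrays in each layer, by more than the spread within a group. The difference was -2.31 ± 0.18 in stroma (4.95-fold, adjusted p = 7.49e-05) and -1.67 ± 0.18 in epithelium (adjusted p = 0.00102). On the epithelial arrays alone Mmp9 did not pass (adjusted p = 0.0501). The 2 effects were not shown to differ (0.64 ± 0.26, 95% interval 0.07 to 1.21, adjusted p = 0.389). Mmp2, the other gelatinase, did not pass, with -0.33 ± 0.09 in stroma (adjusted p = 0.0921) and -0.06 ± 0.09 in epithelium.

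The membrane-type enzyme Mmp14, which is anchored at the cell surface and activates the Mmp2 proform there, fell in both layers too. Its values were 11.59, 11.57 and 11.60 in epithelial cells with E2, against 12.31, 12.32 and 12.57 in epithelial cells with vehicle. They were 11.59, 11.63 and 11.55 in stromal cells with E2, against 12.21, 12.13 and 12.32 in stromal cells with vehicle. The E2 arrays of both layers were nearly level with each other and below every vehicle array. The differences were -0.81 ± 0.09 in epithelium (adjusted p = 0.00104) and -0.63 ± 0.09 in stroma (adjusted p = 0.00238). On the epithelial arrays alone the adjusted p was 0.0635. The other 4 measured membrane-type genes, Mmp16, Mmp17, Mmp24 and Mmp25, did not pass in either layer.

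**Figure D2:**
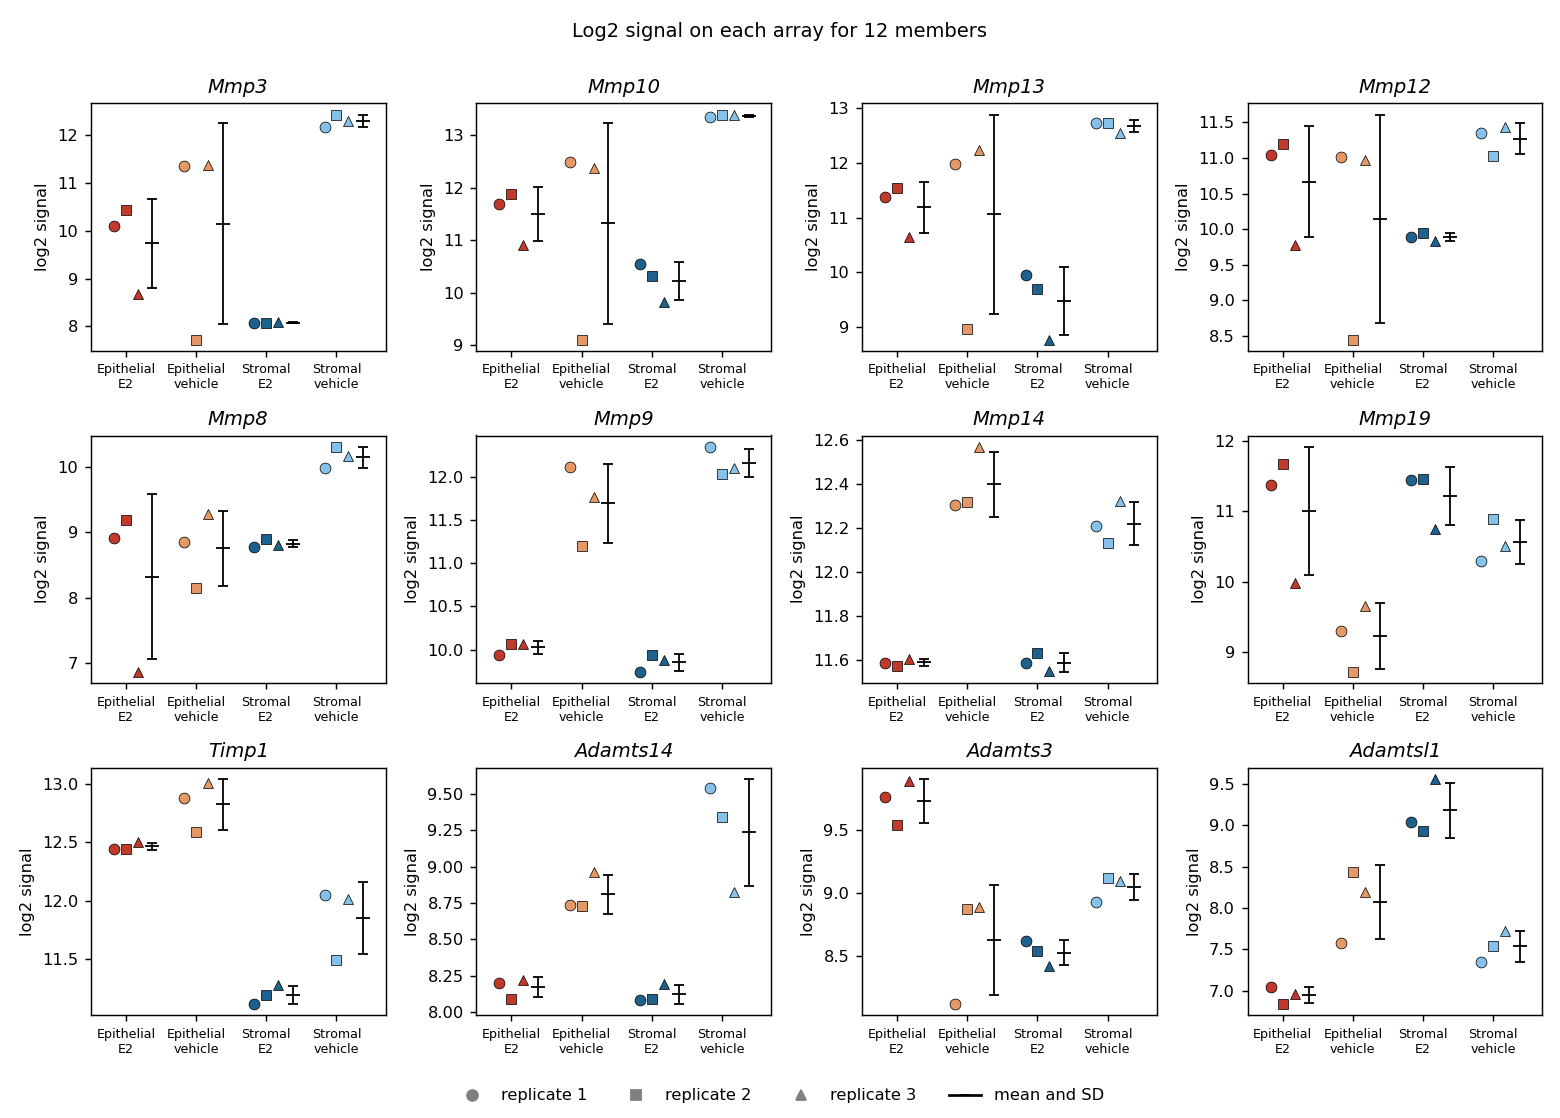
Log2 signal (y axis, a scale of its own per gene) of 12 genes on each of the 12 arrays, grouped as epithelial E2, epithelial vehicle, stromal E2 and stromal vehicle, with the mean and SD beside each group and a marker shape per replicate number. Mmp9 and Mmp14 are lower in the E2 arrays of both layers, while Mmp3 stands at 8.07 to 8.09 in stromal E2 and 12.18 to 12.43 in stromal vehicle arrays.

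The collagenases, the stromelysins Mmp3 and Mmp10, the macrophage elastase Mmp12 and the matrilysin Mmp7 lie near each other in the genome. Among the protein-coding genes of the RefSeq annotation, 10 Mmp genes followed each other on chromosome 9 without another between them. Their order was Mmp13, Mmp12, Mmp1b, Mmp3, Mmp1a, Mmp10, Mmp8, Mmp27, Mmp20 and Mmp7, flanked by Dcun1d5 and Tmem123. Non-coding genes were not considered. In stroma 5 of these 10 passed, all lower with E2, where 1.98% of all probe sets passed as lower, 9 had a negative difference, and the median was -1.18. In epithelium 0 of 10 passed in limma, where 2.9% of all probe sets did, with Mmp7 alone at an unadjusted p under 0.05 (0.00978), 5 had a negative difference and the median was 0.00.

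Stretches before the annotated starts of 6 of these genes are shown because genes of the run moved together in stroma and because AP-1, the dimer of Fos and Jun proteins, is a known activator of several Mmp promoters. They belong to the genes of the run that passed in stroma and to Mmp8, which did not pass. Each stretch is the 120 bases before the start, 5′ to 3′ on the strand of the gene, from the RefSeq promoter windows of build GRCm38.p6. Capitals mark a match to the AP-1 letters TGANTCA, which read the same on both strands. The stretches lie at chr9:7445702-7445821 on the plus strand (Mmp3), chr9:7502222-7502341 on plus (Mmp10), chr9:7272394-7272513 on plus (Mmp13), chr9:7464021-7464140 on plus (Mmp1a), chr9:7388027-7388146 on minus (Mmp1b) and chr9:7558309-7558428 on plus (Mmp8).
Mmp3: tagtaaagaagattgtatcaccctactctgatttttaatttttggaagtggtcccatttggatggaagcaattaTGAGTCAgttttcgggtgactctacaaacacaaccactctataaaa
Mmp10: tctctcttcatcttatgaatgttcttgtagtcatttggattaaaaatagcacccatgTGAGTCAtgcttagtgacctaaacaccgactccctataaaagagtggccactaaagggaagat
Mmp13: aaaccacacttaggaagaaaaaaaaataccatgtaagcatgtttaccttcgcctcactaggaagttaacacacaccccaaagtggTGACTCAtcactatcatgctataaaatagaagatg
Mmp1a: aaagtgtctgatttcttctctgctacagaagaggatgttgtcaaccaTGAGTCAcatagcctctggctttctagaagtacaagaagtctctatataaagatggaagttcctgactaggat
Mmp1b: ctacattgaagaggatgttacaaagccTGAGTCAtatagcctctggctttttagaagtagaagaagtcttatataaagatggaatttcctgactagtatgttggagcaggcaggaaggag
Mmp8: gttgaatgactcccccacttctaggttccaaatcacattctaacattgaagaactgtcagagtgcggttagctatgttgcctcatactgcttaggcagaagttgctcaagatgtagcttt

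Counted back from the start, the AP-1 letters stood at -46 to -40 in Mmp3, -63 to -57 in Mmp10, -35 to -29 in Mmp13, -73 to -67 in Mmp1a and -93 to -87 in Mmp1b, and the Mmp8 stretch held none. Over the whole windows, which reach further back and just past the start, the letters were in 8 of the 10 genes of the run, all but Mmp8 and Mmp27. The genes with the letters include Mmp12 (-1.38 in stroma), Mmp20 (0.01) and Mmp7 (-0.14), which did not pass there and are not shown. Counted by window, the letters were in 8 of the 37 windows of the described genes and in 7.81% of all 32851 windows. Those 37 windows belong to 34 genes, of which 8 had the letters. The letters of the consensus estrogen response element, an inverted repeat around 3 free bases, were in 0 of the 34 genes and in 0.07% of all windows. The ETS letters AGGAAG, on either strand, were in 16 of the 37 windows of the described genes and in 35.4% of all windows. By gene they were in 15 of the 34 genes and in 7 of the 10 genes of the run. These matches describe letters in the windows and say nothing of binding in these cells.

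Mmp3, stromelysin-1, which digests proteoglycans and activates other proforms, had the largest fall of the 49 genes. It measured 8.07, 8.08 and 8.09 in stromal cells with E2, against 12.18, 12.43 and 12.31 in stromal cells with vehicle. In epithelial cells it measured 10.10, 10.44 and 8.69 with E2, against 11.36, 7.72 and 11.37 with vehicle. The stromal groups were far apart and tight, whereas the epithelial groups overlapped, with vehicle replicate 2 the lowest of all 12 arrays. The stromal difference was -4.23 ± 0.79 (18.8-fold, adjusted p = 0.0124) and the epithelial one -0.41 ± 0.79 (adjusted p = 0.880).

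Mmp10, stromelysin-2, with substrates like those of Mmp3, showed the same arrangement. It measured 10.54, 10.31 and 9.83 in stromal cells with E2, against 13.34, 13.38 and 13.38 in stromal cells with vehicle. In epithelial cells it measured 11.70, 11.88 and 10.91 with E2, against 12.48, 9.10 and 12.37 with vehicle. Stromal groups were separate and epithelial groups overlapped, vehicle replicate 2 again lowest. Mmp10 fell by 3.14 ± 0.70 in stroma (8.84-fold, adjusted p = 0.0301), and its epithelial difference was 0.18 ± 0.70 (adjusted p = 0.944).

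Mmp13, the main interstitial collagenase of rodents, measured 9.96, 9.69 and 8.77 in stromal cells with E2, against 12.73, 12.74 and 12.55 in stromal cells with vehicle. In epithelial cells it measured 11.37, 11.54 and 10.65 with E2, against 11.99, 8.97 and 12.24 with vehicle. The stromal groups did not overlap, and the lowest epithelial value was once more that of vehicle replicate 2. The stromal fall was 3.20 ± 0.69 (9.20-fold, adjusted p = 0.0252), with an epithelial difference of 0.12 ± 0.69 (adjusted p = 0.961).

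The standard errors of these genes come from a spread shared by all 12 arrays. For Mmp3 the SD was 0.93 in epithelial E2 and 2.10 in epithelial vehicle arrays, but 0.01 in stromal E2 and 0.12 in stromal vehicle arrays. Fitted on the 6 stromal arrays alone, the adjusted p was 4.26e-07 for Mmp3, 9.89e-05 for Mmp10 and 0.000509 for Mmp13. Without epithelial vehicle replicate 2, an array outside the stromal comparison, it was 6.26e-05 for Mmp3. With E2 replicates 1 and 2 averaged the 3 genes did not pass in the fit of all groups (adjusted p = 0.0836 for Mmp3, 0.139 for Mmp10 and 0.110 for Mmp13). Leaving out any 1 stromal array gave an adjusted p of 0.0435 to 0.0534 for Mmp3, 0.0842 to 0.116 for Mmp10 and 0.0602 to 0.107 for Mmp13.

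The neighbours Mmp8 and Mmp12 did not pass. Mmp8, the neutrophil collagenase, measured 8.78, 8.89 and 8.81 in stromal cells with E2, against 9.98, 10.30 and 10.17 in stromal cells with vehicle, a difference of -1.32 ± 0.49 (adjusted p = 0.231). Mmp12, the macrophage elastase, measured 9.89, 9.95 and 9.83 in stromal cells with E2, against 11.36, 11.02 and 11.44 in stromal cells with vehicle, a difference of -1.38 ± 0.58 (adjusted p = 0.334). In both genes the stromal groups were apart, and on the 6 stromal arrays alone both passed, with an adjusted p of 0.000243 for Mmp8 and 0.000435 for Mmp12. In epithelial cells Mmp12 measured 11.04, 11.19 and 9.77 with E2, against 11.01, 8.44 and 10.97 with vehicle. The epithelial values of Mmp8 were 8.91, 9.19 and 6.87 with E2, against 8.85, 8.14 and 9.27 with vehicle. Both genes overlapped between the epithelial groups.

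Mmp1a and Mmp1b, the mouse relatives of interstitial collagenase, passed as lower in stroma at signals below 6 on all arrays, where a difference is hard to read. Mmp1b measured 4.35, 4.23 and 4.18 in stromal cells with E2, against 5.55, 4.93 and 5.43 in stromal cells with vehicle (-1.05 ± 0.14, adjusted p = 0.00202). Mmp1a measured 4.59, 4.69 and 4.61 with E2, against 5.65, 5.04 and 5.90 with vehicle in stroma (-0.90 ± 0.18, adjusted p = 0.0202). The genes are related copies, and whether their probes share signal was not tested. Mmp1a did not pass with E2 replicates 1 and 2 averaged (adjusted p = 0.121). Its call was also lost without stromal vehicle replicate 1 or 3 or any 1 stromal E2 array. Mmp27 (-0.23 ± 0.19 in stroma) and Mmp20, an enzyme of tooth enamel (0.01 ± 0.11), did not pass.

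Mmp7, matrilysin, an enzyme of glandular epithelia, measured 6.90, 7.33 and 7.41 in epithelial cells with E2, against 8.91, 9.70 and 7.23 in epithelial cells with vehicle. Vehicle replicate 3 lay within the E2 values, and the difference of -1.40 ± 0.45 did not pass (adjusted p = 0.136). Without vehicle replicate 3 it was -2.09 and passed (adjusted p = 0.000474), and without vehicle replicate 2 it was -0.86 (adjusted p = 0.300). The mean of the epithelial markers was 11.31, 11.87 and 10.21 in vehicle replicates 1, 2 and 3, in the same order as Mmp7, and its part in the result was not tested. In stroma its values were 6.23, 6.43 and 6.24 with E2, against 6.38, 6.37 and 6.58 with vehicle.

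**Figure D3:**
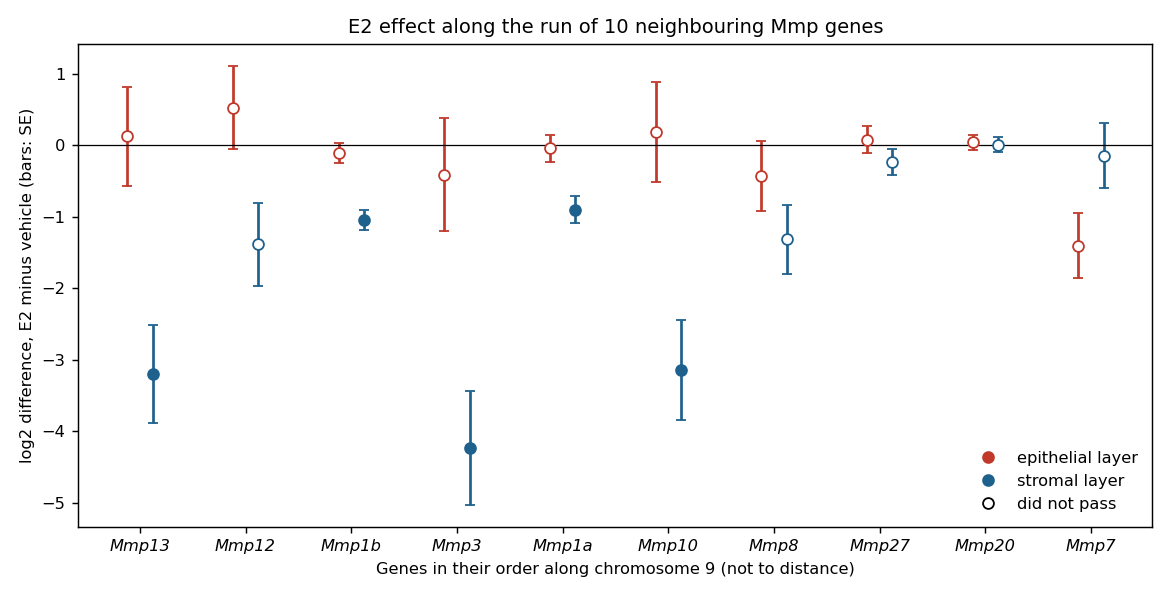
Log2 difference of E2 over vehicle, with the standard error as bars, for the 10 neighbouring Mmp genes in their order along chromosome 9, in the epithelial and stromal layers, with open points for those that did not pass. The 5 filled points are stromal and below 0, with Mmp3 (-4.23), Mmp13 (-3.20) and Mmp10 (-3.14) lowest, and the epithelial points of Mmp13, Mmp3 and Mmp10 have bars that reach across 0.

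Markers of other cell types were read on the same arrays, where 3.5% of all probe sets passed with E2 in stroma and 2.9% in epithelium. The mean of 12 leukocyte and macrophage markers was 9.14 to 9.43 in stromal cells with E2, against 9.53 to 9.74 in stromal cells with vehicle. Of these 12 markers 0 passed in limma, 3 had an unadjusted p under 0.05, 10 had a negative difference and the median was -0.42. In the epithelial layer the same mean was 8.64 to 9.54 with E2, against 8.41 to 8.81 with vehicle, and Csf1r, the macrophage growth factor receptor, passed as higher (1.01 ± 0.14, adjusted p = 0.00317). Neutrophil markers had a mean of 6.01 to 6.19 in stromal cells with E2, against 5.93 to 6.07 with vehicle, and 0 of 8 passed, with 0 at an unadjusted p under 0.05. Epithelial markers in stroma had a mean of 7.09 to 7.25 with E2, against 6.69 to 6.99 with vehicle, and 1 of 12 passed, the keratin Krt7, as higher (1.32 ± 0.28, adjusted p = 0.0240). Smooth muscle markers in stroma had a mean of 12.21 to 12.34 with E2, against 11.97 to 12.06 with vehicle. All 6 had a positive difference, and Cnn1, the calponin of smooth muscle, passed (0.60 ± 0.08, adjusted p = 0.00175). Endothelial markers in stroma had a mean of 7.71 to 7.74 with E2, against 7.68 to 8.04 with vehicle, and 1 of 6 passed, the endothelial cadherin Cdh5, as lower (-1.50 ± 0.26, adjusted p = 0.00771). The list was mixed, with 4 negative and 2 positive differences and a median of -0.03. In the epithelial layer the mean of the 12 epithelial markers was 10.13 to 10.41 with E2, against 10.21 to 11.87 with vehicle. Of these 11 had a negative difference, 7 had an unadjusted p under 0.05, the median was -0.81, and the claudin Cldn4 passed as lower (-1.24 ± 0.25, adjusted p = 0.0224). The part of these cells in the results of either layer was not tested.

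Mmp19, an enzyme of basement membrane and tenascin, was the Mmp gene that passed as higher with E2. It measured 11.37, 11.68 and 9.97 in epithelial cells with E2, against 9.30, 8.72 and 9.66 in epithelial cells with vehicle. The groups did not overlap, but E2 replicate 3 was much closer to the vehicle arrays than to the other E2 arrays. The difference was 1.78 ± 0.40 (3.44-fold, adjusted p = 0.0376), and without vehicle replicates 1 or 2 or E2 replicates 1 or 2 it did not pass (adjusted p = 0.0890, 0.0971, 0.158 and 0.157). In stroma the difference was 0.66 ± 0.40 (adjusted p = 0.630). The leukocyte marker mean of those arrays followed the same order, being 9.41, 9.54 and 8.64 in epithelial E2 replicates 1, 2 and 3, and its part in the result was not tested. None of the other 5 genes outside the classical Mmp classes, Mmp20, Mmp21, Mmp23, Mmp27 and Mmp28, passed in either layer.

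Of the 4 inhibitors Timp1 passed in 1 layer. Timp1, a secreted inhibitor of most MMPs, measured 11.12, 11.19 and 11.28 in stromal cells with E2, against 12.05, 11.50 and 12.02 in stromal cells with vehicle. It measured 12.44, 12.45 and 12.50 in epithelial cells with E2, against 12.88, 12.59 and 13.01 in epithelial cells with vehicle. E2 arrays lay below vehicle arrays in both layers, with a fall of 0.66 ± 0.15 in stroma (adjusted p = 0.0330) and a difference of -0.36 ± 0.15 in epithelium that did not pass (adjusted p = 0.251). The stromal call ended when E2 replicates 1 and 2 were averaged (adjusted p = 0.196) and in the fit of every probe set. It was also lost without stromal vehicle replicate 1 or 3 or any 1 stromal E2 array. Timp2, which helps Mmp14 activate Mmp2, differed by -0.30 ± 0.10 in epithelium (adjusted p = 0.155) and -0.13 ± 0.10 in stroma. Timp3, the inhibitor bound to matrix, differed by -0.38 ± 0.14 in epithelium (adjusted p = 0.197) and -0.09 ± 0.14 in stroma. Timp4, which was above 6 on fewer than 3 arrays, differed by 0.04 ± 0.13 and 0.01 ± 0.13 in the epithelial and stromal layers.

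The ADAMTS proteases that remove the amino-terminal propeptide of fibrillar collagens passed in both measured cases. Adamts14 measured 8.08, 8.09 and 8.19 in stromal cells with E2, against 9.54, 9.34 and 8.83 in stromal cells with vehicle. It measured 8.20, 8.09 and 8.22 in epithelial cells with E2, against 8.74, 8.73 and 8.96 in epithelial cells with vehicle. No E2 array reached a vehicle array in either layer. It fell by 1.12 ± 0.15 in stroma (adjusted p = 0.00192) and by 0.64 ± 0.15 in epithelium (adjusted p = 0.0496), and the epithelial call was lost when any 1 epithelial array was left out.

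Adamts3, the enzyme of type II procollagen that also processes the lymphatic growth factor VEGF-C, differed between the layers. It measured 9.76, 9.54 and 9.89 in epithelial cells with E2, against 8.12, 8.87 and 8.89 in epithelial cells with vehicle. In stromal cells it measured 8.62, 8.54 and 8.42 with E2, against 8.93, 9.12 and 9.09 with vehicle. The epithelial E2 arrays lay above their vehicle arrays and the stromal E2 arrays below theirs. It rose by 1.10 ± 0.18 in epithelium (2.14-fold, adjusted p = 0.00869), and the stromal difference of -0.52 ± 0.18 did not pass (adjusted p = 0.196). The difference of the E2 effects, epithelium minus stroma, was 1.62 ± 0.26 (adjusted p = 0.0146). It did not pass with E2 replicates 1 and 2 averaged (adjusted p = 0.130), nor without stromal E2 replicate 2 (adjusted p = 0.0526).

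Adamts3 had 16 probe sets, which gave a wider view of the same arrays. In epithelium all 16 had a positive difference, of 0.90 to 1.44, and 11 passed. In stroma all 16 had a negative difference, of -2.07 to -0.52, and 13 passed. The difference between layers passed in 16 of 16, at 1.62 to 3.51, and the brightest probe set, used above, had the smallest. Probe sets of 1 gene share their arrays and are not replicates, and they were looked at after the data had been seen.

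Adamtsl1, an ADAMTS-like matrix glycoprotein, was the 1 gene of the 49 that passed as higher in stroma. It measured 9.05, 8.94 and 9.56 in stromal cells with E2, against 7.35, 7.54 and 7.73 in stromal cells with vehicle. In epithelial cells it measured 7.04, 6.84 and 6.96 with E2, against 7.58, 8.44 and 8.20 with vehicle. The groups were apart in both layers, in opposite directions. It rose by 1.64 ± 0.22 in stroma (3.12-fold, adjusted p = 0.00151) and fell by 1.12 ± 0.22 in epithelium (adjusted p = 0.0188). The difference of the effects was -2.76 ± 0.30 (95% interval -3.43 to -2.10, adjusted p = 0.00333), which also passed with E2 replicates 1 and 2 averaged (adjusted p = 0.0388). The epithelial fall did not pass then (adjusted p = 0.130), nor without E2 replicate 1 (0.0682) or E2 replicate 2 (0.0904). Its second probe set had 1.61 in stroma, which passed, and -0.61 in epithelium, which did not.

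**Figure D4:**
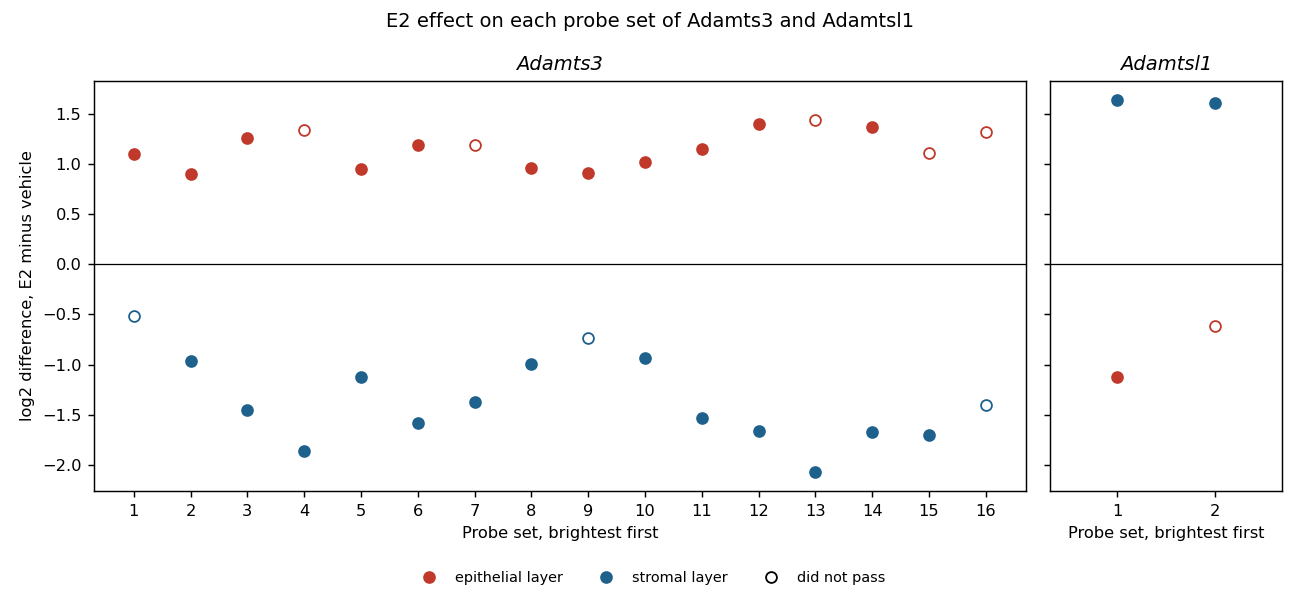
Log2 difference of E2 over vehicle for each of the 16 probe sets of Adamts3 and the 2 of Adamtsl1, in the epithelial and stromal layers, with the brightest probe set leftmost on the x axis and open points for those that did not pass. Adamts3 lies above 0 in epithelium (0.90 to 1.44) and below 0 in stroma (-2.07 to -0.52) in every probe set, and Adamtsl1 does the reverse.

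Of the remaining ADAMTS genes Adamts16 passed, as lower in stroma. It measured 6.77, 6.71 and 6.68 in stromal cells with E2, against 7.11, 7.15 and 7.20 in stromal cells with vehicle (-0.44 ± 0.09, adjusted p = 0.0200). The groups were tight and apart, at a small difference. The call was lost when any 1 stromal array was left out and with E2 replicates 1 and 2 averaged (adjusted p = 0.1005). Among the 7 genes that cleave proteoglycans (Adamts1, Adamts4, Adamts5, Adamts8, Adamts9, Adamts15 and Adamts20) 0 passed in limma in either layer, with 0 at an unadjusted p under 0.05 in epithelium and 3 in stroma.

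The E2 effects of the layers differed by test in 2 of the 49 genes (4.08%), Adamts3 and Adamtsl1, where 0.91% of all probe sets passed (0.641% higher and 0.269% lower). At an unadjusted p under 0.05 there were 14, of which 10 were positive. For Mmp3 the difference of the effects was 3.82 ± 1.12 (adjusted p = 0.178), for Mmp10 3.32 ± 0.99 (adjusted p = 0.184) and for Mmp13 3.32 ± 0.97 (adjusted p = 0.173). Without epithelial vehicle replicate 2 these values were 2.61, 2.21 and 2.28, and each passed (adjusted p = 0.0376, 0.0139 and 0.0348). Without epithelial vehicle replicate 3 the difference of the effects passed for Mmp13 as well (3.91, adjusted p = 0.0485). It did not for Mmp3 (4.43, adjusted p = 0.0600) or Mmp10 (3.85, adjusted p = 0.06455). Leaving out epithelial vehicle replicate 2 also moved the epithelial E2 effects. They were then -1.63 for Mmp3 (adjusted p = 0.0488), -0.93 for Mmp10 (adjusted p = 0.0995) and -0.93 for Mmp13 (adjusted p = 0.192).

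The layers were also set against each other. Under vehicle 16 of the 49 genes differed (32.7%), 5 higher and 11 lower in epithelium than in stroma, where 21.4% of all probe sets passed (7.27% higher and 14.1% lower). Under E2 13 differed (26.5%), 3 higher and 10 lower, where 13.6% of all probe sets passed (4.43% higher and 9.18% lower). The layers did not overlap in 23 genes under vehicle, against 36% of all probe sets, and in 28 under E2, against 38.9%. Since the inserts also carried stromal and mesothelial markers, these differences are between the harvested layers. Under E2, 20 genes passed on the arrays compared alone, beside 15.2% of all probe sets, and 8 with E2 replicates 1 and 2 averaged, beside 6.07%.

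Timp1 and Mmp16 were higher in the epithelial layer under both treatments. Timp1 averaged 12.83 ± 0.22 in epithelial and 11.85 ± 0.31 in stromal cells with vehicle (SD, n = 3 each), a difference of 0.97 ± 0.15 (adjusted p = 0.000926), and 12.47 ± 0.03 in epithelial and 11.20 ± 0.08 in stromal cells with E2 (SD, n = 3 each), a difference of 1.27 ± 0.15 (adjusted p = 0.000222). Mmp16, a membrane-type enzyme, differed by 0.41 ± 0.11 under E2 (adjusted p = 0.0345) and 0.72 ± 0.11 under vehicle (adjusted p = 0.00104). Its call under E2 was lost with quantile normalization, with E2 replicates 1 and 2 averaged (adjusted p = 0.183), and without epithelial E2 replicate 1 or 2 or any 1 stromal E2 array. Under vehicle Mmp7 (2.17 ± 0.45), Timp3 (0.73 ± 0.14) and Adamts20 (0.39 ± 0.09) were higher in epithelium as well. Under E2 Adamts3 was (1.20 ± 0.18), and it passed in all 16 of its probe sets there.

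Among the genes lower in the epithelial layer under both treatments were Adamts4, an aggrecan-cleaving enzyme, Mmp11, the stromelysin of stromal cells, and Mmp17, a membrane-type enzyme. Mmp11 averaged 9.62 ± 0.17 in epithelial and 11.70 ± 0.25 in stromal cells with E2 (SD, n = 3 each), a difference of -2.08 ± 0.21, and the difference under vehicle was -1.37 ± 0.21. Adamts4 differed by -1.63 ± 0.28 under E2 and -1.78 ± 0.28 under vehicle, and Mmp17 by -1.73 ± 0.25 and -1.32 ± 0.25. Among the largest under vehicle were also Mmp19 (-1.34 ± 0.40), Adamts12 (-1.31 ± 0.22) and Adamts7 (-0.95 ± 0.28). The calls of Mmp19 and Adamts7 were lost with quantile normalization and without epithelial vehicle replicate 1 or any 1 stromal vehicle array. Among the largest under E2 were also Adamtsl1 (-2.23 ± 0.22), Adamts5 (-1.55 ± 0.32), an aggrecan- and versican-cleaving enzyme, and Adamts6 (-0.94 ± 0.22). Adamts5 did not pass with E2 replicates 1 and 2 averaged (adjusted p = 0.0787), nor Adamts6 without stromal E2 replicate 2 (adjusted p = 0.0539). Adamts12 passed under E2 too (-0.87) and Adamts6 under vehicle (-0.74), and both of these calls were lost under several alternatives.

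**Figure D5:**
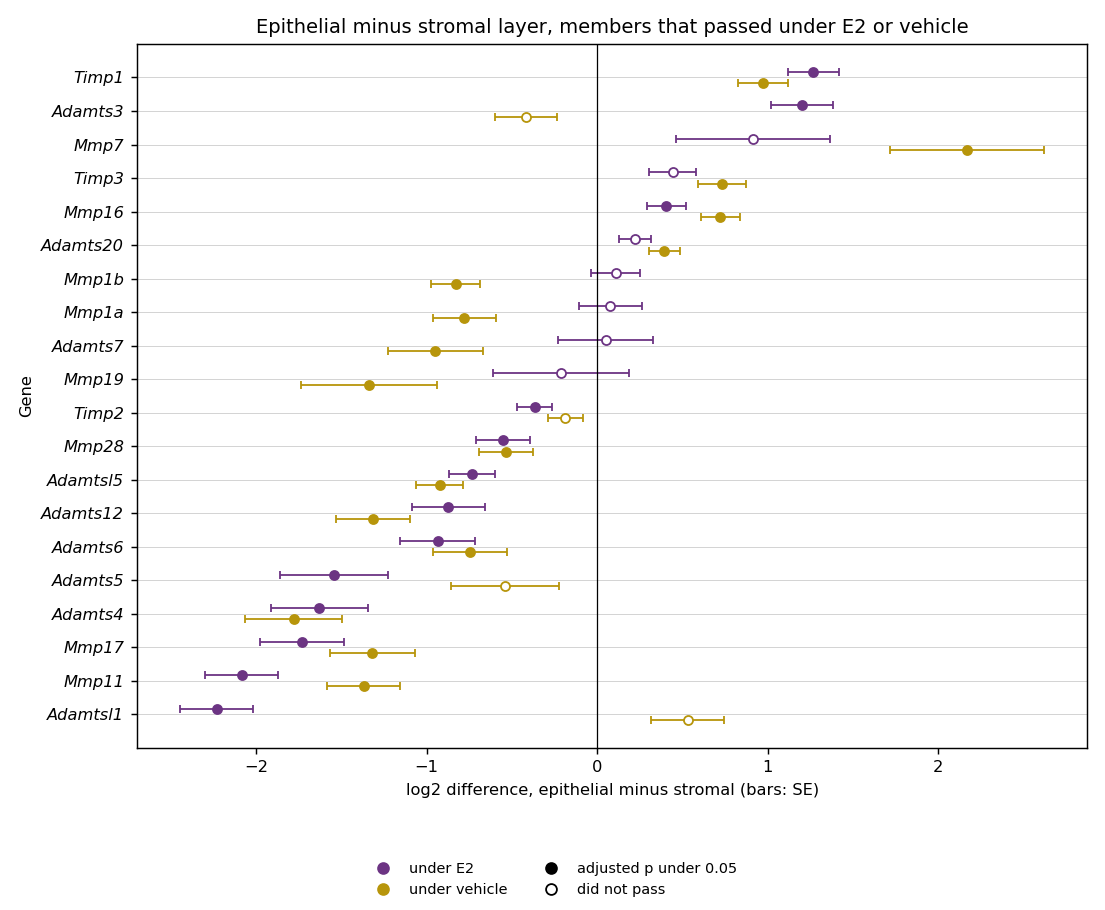
Log2 difference of the epithelial over the stromal layer under E2 and under vehicle for the genes that passed in either layer comparison, with standard errors as bars and open points for those that did not pass. Timp1 and Mmp16 lie above 0 and Mmp11, Mmp17 and Adamts4 below 0 under both treatments.

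Other genes of the system were counted from lists of their activators, relatives, substrates and inducers. Of 19 measured activators and regulators 0 rose and 2 fell in stroma (10.5%, where 3.5% of all probe sets passed), the plasminogen activator Plat (-1.57 ± 0.15, adjusted p = 0.000223) and Tfpi2, a serine protease inhibitor of the matrix (-0.89 ± 0.19). In epithelium 2 rose and 1 fell (15.8%, where 2.9% of all probe sets passed). Pcsk5, a proprotein convertase, rose by 0.83 ± 0.13 and the proteoglycan Spock3 by 0.46 ± 0.09, while the urokinase gene Plau fell by 0.94 ± 0.21. The median of all probe sets was 0.03 in both layers. Plat was also the 1 gene of this list whose E2 effect differed between layers (1.08 ± 0.21, adjusted p = 0.0452).

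Of 14 related metzincins, the wider family of such zinc proteases, 0 rose and 1 fell in stroma, Adam17, which sheds Tnf from cells (-0.51 ± 0.09). That share of 7.14% rests on 1 gene, where 3.5% of all probe sets passed. In epithelium 0 passed in limma and 4 had an unadjusted p under 0.05. Of 19 measured substrates and binding partners 0 rose and 1 fell in stroma (5.26%, near the 3.5% of all probe sets), and 1 rose and 1 fell in epithelium (10.5%, where 2.9% of all probe sets passed). Vcan, the proteoglycan versican, fell in both layers, to 9.50 in epithelial cells with E2 against 11.02 with vehicle (-1.53 ± 0.22, adjusted p = 0.00484) and to 11.41 in stromal cells with E2 against 12.42 with vehicle (-1.01 ± 0.22, adjusted p = 0.0303). Thbs2, a matricellular protein that binds Mmp2, rose in epithelium (0.92 ± 0.10).

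Of 17 measured inducers of Mmp genes 1 rose and 5 fell in stroma (35.3%), where 3.5% of all probe sets passed. The interleukins Il1a (-3.10 ± 0.28) and Il1b (-1.78 ± 0.32) and the cytokine Tnf (-2.58 ± 0.31) fell, as did the transcription factors Jun (-0.82 ± 0.14) and Ets1 (-0.53 ± 0.12). Fos, the partner of Jun in AP-1, rose to 9.94 in stromal cells with E2, against 8.58 with vehicle (1.36 ± 0.13, adjusted p = 0.000251). In epithelium Fosl2, a Fos relative, rose (0.55 ± 0.10), and Tnf (-1.47 ± 0.31) and the growth factor Csf2 (-2.02 ± 0.38) fell. The E2 effect, epithelium minus stroma, was higher for Il1a (2.27 ± 0.40, adjusted p = 0.0249) and Jun (1.07 ± 0.20, adjusted p = 0.0370) and lower for Fos (-0.93 ± 0.19, adjusted p = 0.0499). Whether the inducers bear on the Mmp genes was not tested.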

How the data were processed

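RNA of 12 samples was measured on Affymetrix Mouse Gene 1.0 ST arrays. The authors deposited log2 values for 35556 probe sets, made by RMA per the submitters' processing notes, with no version stated. RMA corrects background, makes the distributions of arrays alike and summarizes probes, so levels are relative within a probe set, and no detection call was used. The values were not changed, and the number of arrays limits the precision.

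Groups of layer and treatment came from the sample titles. limma 3.58.1 in R 4.3.3 (lmFit, eBayes) fitted 4 group means to the 12 arrays and to 23410 probe sets with a symbol. Tests were two-sided, with Benjamini-Hochberg adjustment over that table, and a gene passed under 0.05. Standard errors share 1 spread per probe set over all arrays. The procedure was run on simulated data that gave all groups the same spread per probe set. Median SDs of the real groups were 0.158 (epithelial E2), 0.185 (epithelial vehicle), 0.0804 (stromal E2) and 0.0946 (stromal vehicle). The simulation therefore did not test unequal spread.

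Symbols came from the platform annotation, and all 49 matched RefSeq (GRCm38.p6). The array table names no build, so the coordinates printed belong to the RefSeq promoter windows. Of the 49 genes, 5 (Mmp1a, Mmp1b, Mmp20, Timp4 and Adamtsl3) did not exceed 6 on at least 3 arrays and were kept.

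Members, lists and tests were chosen with earlier results of these data known. Named were the genes past the threshold in an E2 comparison or in the difference between layers, the 4 Timp genes, up to 6 genes per direction in each layer comparison, and the neighbouring Mmp genes. Others are given as counts, or where a group of genes is listed in full. Residuals of same-numbered arrays correlated in each of the 3 pairs of epithelial and stromal vehicle arrays (r = 0.175, 0.137 and 0.125), but not in every pair of the other comparisons, and the labels do not tie numbers to animals. Such weak correlations do not settle whether the numbers pair the layers under vehicle. The main fit treated the layers as unpaired, and counts with the replicate number as a block are given below.

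Each result was repeated with low values filtered, with every probe set, with median and quantile scaling, a variance trend, array weights, a replicate block, the arrays compared alone, the mean of a gene's probe sets, other thresholds and each array left out. Alternatives chosen after seeing the data were E2 replicates 1 and 2 averaged, the stromal comparison without epithelial vehicle replicate 2, and single probe sets of a gene.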

Additional observations from a re-analysis of the deposited data

Results flagged for a closer look

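The E2 effect differed between the layers by the interaction test in 2 genes. For Adamts3 the epithelial minus the stromal effect was 1.62 ± 0.26 (limma, adjusted p = 0.0146), with all 3 epithelial E2 arrays above and all 3 stromal E2 arrays below the vehicle arrays of their layer. For Adamtsl1 it was -2.76 ± 0.30 (limma, adjusted p = 0.00333), with all 3 epithelial E2 arrays below and all 3 stromal E2 arrays above the vehicle arrays of their layer.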

How the results depend on the processing

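No gene past the threshold changed direction under the alternatives run, but the counts moved. Counts of genes past the threshold are given in the order epithelial E2 effect, stromal E2 effect, difference of the effects, layers under vehicle and layers under E2, where they were 6, 11, 2, 16 and 13. An adjusted p under 0.01 gave 3, 5, 1, 10 and 8. A change of at least 2-fold besides gave 4, 7, 2, 6 and 7. Array weights gave 14, 24, 15, 21 and 32, while 20.1%, 19.2%, 19.2%, 42.1% and 50.4% of all probe sets passed. With the replicate number as a block the counts were 4, 7, 1, 18 and 12, so it moved the stromal E2 effect and the difference of the effects. Mmp10, Mmp13, Mmp1a, Timp1 and Adamts16 in stroma, Mmp19 and Adamts14 in epithelium, Adamts3 in the difference and Timp2 between layers under E2 then did not pass. In limma fits of the arrays compared alone the counts were 0 in epithelium (10 at an unadjusted p under 0.05), 19 in stroma, 13 under vehicle and 20 under E2. E2 replicates 1 and 2 averaged gave 2, 5, 1, 14 and 8. The stromal effect without epithelial vehicle replicate 2 gave 14. Leaving out 1 array gave 3 to 8, 5 to 8, 1 to 5, 12 to 18 and 8 to 12.

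The arrays that moved a count by over 1.5 times were epithelial E2 replicates 1 and 2 (3 each for the epithelial effect), stromal E2 replicates 1, 2 and 3 (5, 5 and 6) and stromal vehicle replicates 1 and 3 (6 and 5) for the stromal effect. For the difference of the effects they were epithelial vehicle replicates 2 and 3 (5 each), stromal vehicle replicate 2 (4) and stromal E2 replicate 2 (1), and for the layers under E2 stromal E2 replicate 2 (8). With every 1 array left out in turn, 3 of 6, 5 of 11, 1 of 2, 12 of 16 and 8 of 13 genes kept their call throughout. The filter on low values, all probe sets, both scalings, the variance trend and the mean of a gene's probe sets kept each count within 1.5 times. The causes of these shifts were not tested, and some fits also had fewer arrays. Arrays without a detection call limit the reading of low signals such as Mmp1a and Mmp1b.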

Other observations

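On the 6 stromal arrays alone, 19 of the 49 genes passed (2 higher and 17 lower with E2), where 9.15% of all probe sets did. The genes below passed there and not in the fit of all 12 arrays, and they were picked after their values were seen. Among the ADAMTS proteases that cut proteoglycans, Adamts5 measured 11.82, 11.87 and 11.83 in stromal cells with E2, against 10.45, 11.23 and 11.06 in stromal cells with vehicle, a difference of 0.93 (adjusted p = 0.0172). Adamts4 went the other way, with 10.63, 10.66 and 11.29 in stromal cells with E2, against 11.51, 11.54 and 11.85 with vehicle (-0.77, adjusted p = 0.0379). The groups did not overlap for either gene.

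Adamts7 and Adamts12, which both cleave the cartilage protein COMP, were lower together. Adamts12 measured 10.76, 10.86 and 11.02 in stromal cells with E2, against 11.60, 11.82 and 11.82 with vehicle (-0.87, adjusted p = 0.00130). Adamts7 measured 10.00, 10.14 and 10.05 with E2, against 10.79, 10.73 and 10.61 with vehicle in stroma (-0.65, adjusted p = 0.00172). Mmp2 (-0.33, adjusted p = 0.0185) and Adamts3 (-0.52, adjusted p = 0.00658) passed there too. In the fit of all 12 arrays their adjusted p was 0.184 for Adamts5, 0.235 for Adamts4, 0.0520 for Adamts12, 0.347 for Adamts7, 0.0921 for Mmp2 and 0.196 for Adamts3.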
